A study of Bos taurus with 18 samples.

Results

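The genes described here encode the enzymes that remove superoxide and peroxide in the bovine blastocyst: the superoxide dismutases SOD1 and SOD2, catalase (CAT), the peroxiredoxins PRDX1 to PRDX6, and the glutathione peroxidase GPX1. They were chosen by name, as every probe set (the group of short probes that reports 1 transcript) that the platform annotation pairs with 1 of these symbols alone. All 10 genes were found, on 15 of the 24016 probe sets tested, which cover 9155 named genes. For 7 of the 10 genes there is 1 probe set, and for the other 3 (PRDX3, PRDX6 and GPX1) there are several, numbered here by falling brightness. PRDX4 lies on the X chromosome and the other 9 genes are autosomal.

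The study compared female with male embryos produced in vitro. Sperm of 3 bulls, sorted for the X or the Y chromosome, fertilised oocytes, and embryos of mixed breed were frozen at the blastocyst stage on day 7. RNA was taken from pools of 60 embryos, 50 ng was amplified, and each of 18 pools was measured on 1 Affymetrix bovine array. The 6 groups are female and male embryos of bull 1, bull 2 and bull 3, with 3 arrays each, so each sex has 9 arrays and each bull 6. All groups share the culture and the age, and none was treated. Each bull is 1 sire, so a difference between bulls cannot be told apart from the sorting, oocytes or fertilisation runs that went with that bull. Female and male embryos likewise came from different sorted sperm fractions. A sex difference therefore cannot be told apart from the sorting, or from any fertilisation run that went with a fraction. Whether pools of 1 group were fertilised and cultured separately is not in the labels, so a p-value speaks of the spread among these 18 pools and not of that among new cultures.

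Superoxide escapes from the respiratory chain and is made by NADPH oxidases. Superoxide dismutases turn it into hydrogen peroxide, SOD1 with copper and zinc mainly in the cytosol and SOD2 with manganese in mitochondria. Catalase in peroxisomes, peroxiredoxins with a reactive cysteine, and glutathione peroxidases with selenium then reduce the peroxide, and the cysteine enzymes are restored mostly by thioredoxin or, for PRDX6, by glutathione. Oxidative stress is a known limit on the development of embryos in culture, where oxygen and energy substrates differ from those of the reproductive tract.

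Values are log2 expression values as deposited, in which 1 unit is a doubling, and a level of 1 probe set cannot be set against that of another. Differences are female minus male, averaged over the bulls, and a probe set is called where limma's p, adjusted by Benjamini-Hochberg over all 24016 probe sets, is under 0.05. Array medians lay between 5.33 and 5.49. XIST, the RNA that coats an inactive X chromosome, was 8.87 to 9.57 on the 9 female arrays and 5.93 to 7.28 on the 9 male arrays, with no overlap. Of the trophectoderm (outer layer) list, KRT18 and IFNT2 had means of 14.04 and 10.85. POU5F1 of the inner cell mass list had 11.93, and GATA6 of the primitive endoderm list 12.39. These are bright members: ELF5 (3.64), SPP1 (5.36) and TTR (3.14) of the same lists lay below the median probe set in brightness. Above it lay 8 of 11, 4 of 5 and 6 of 8 measured markers of these lists. So did 8 of 18 cumulus and granulosa markers, TIMP2 (10.18) and HAS2 (9.90) among them. In pools of whole embryos, fewer cells of a type and less RNA per cell cannot be told apart. The mean of 5 inner cell mass markers was 9.45 to 9.70 in females and 9.24 to 9.50 in males, and that of 11 trophectoderm markers 7.53 to 7.95 and 7.54 to 8.12. The mean of 18 cumulus and granulosa markers was 5.45 to 5.95 and 5.29 to 5.86, that of 8 blood cell markers 4.48 to 4.96 and 4.49 to 4.76, that of 8 oocyte markers 4.66 to 5.41 and 4.66 to 5.14, and that of 7 sperm markers 5.70 to 5.98 and 5.41 to 5.80. Single markers moved with sex on each list, in both directions on most. Of the trophectoderm markers 5 of 11 were called, IFNT2 higher in females (0.59) and PAG2 (-0.68), TFAP2A (-0.54), PAG11 (-0.48) and ASCL2 (-0.42) higher in males. Both called inner cell mass markers, SPP1 (0.56) and STAT3 (0.28), were higher in females, and of the 8 primitive endoderm markers RBP4 (0.92) was higher in females and GATA4 (-0.22) in males. Of the cumulus and granulosa markers 5 of 18 were called, 4 higher in females, led by TIMP2 (0.70) and CYP19A1 (0.56), and COL1A2 (-0.26) in males. Of the blood cell markers 4 of 8 were called, 3 higher in females, led by HBB (0.81), and CD68 (-0.43) in males. Of the oocyte markers 1 of 8, OOEP (0.36), was called. Of the sperm markers 4 of 7 were called, SPA17 (-0.28) and ODF2 (-0.25) higher in males and PRM1 (1.73) and TNP1 (0.88) in females, with 5 of the 7 differences below 0. The part of these lists in the results below was not tested. On 4 arrays the values scattered more widely about the other arrays (an interquartile range of relative log expression above 0.25): replicate 3 of female bull 1, replicate 2 of male bull 1, replicate 1 of male bull 2 and replicate 3 of male bull 3.

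Female and male blastocysts differed in 4 of the 10 genes, each read on its brightest probe set. SOD1 and PRDX4 were higher in females, by 1.38-fold and 1.69-fold, and PRDX3 and PRDX5 were higher in males, by 1.14-fold and 1.16-fold. PRDX3 probe set 2 had the opposite sign and was not called (0.10, adjusted p = 0.357). With the bull as the replicate, PRDX3 and PRDX5 lost their calls. The other 6 genes (SOD2, CAT, PRDX1, PRDX2, PRDX6 and GPX1) did not pass the test on their brightest probe set. Over all 15 probe sets 5 were called, 3 higher in females and 2 in males, where 15.6% of all probe sets were called (8.12% higher in females and 7.47% in males). By gene, 20.8% of the 9155 genes were called on their brightest probe set (11.5% higher in females and 9.31% in males). The members are bright, and of the 1477 probe sets at least as bright as the dimmest of these 10, 19.5% were called. The median difference over the 10 genes was 0.05 (median size 0.15), against -0.01 (median size 0.10) over all genes. The 9 female and 9 male arrays did not overlap for 2 of the 15 probe sets, SOD1 and PRDX4, where 2.92% of all probe sets showed no overlap and 1.99% did so with females higher. The sign of the difference was the same in all 3 bulls for 10 of the 15, and for 48.1% of all probe sets.

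**Figure D1:**
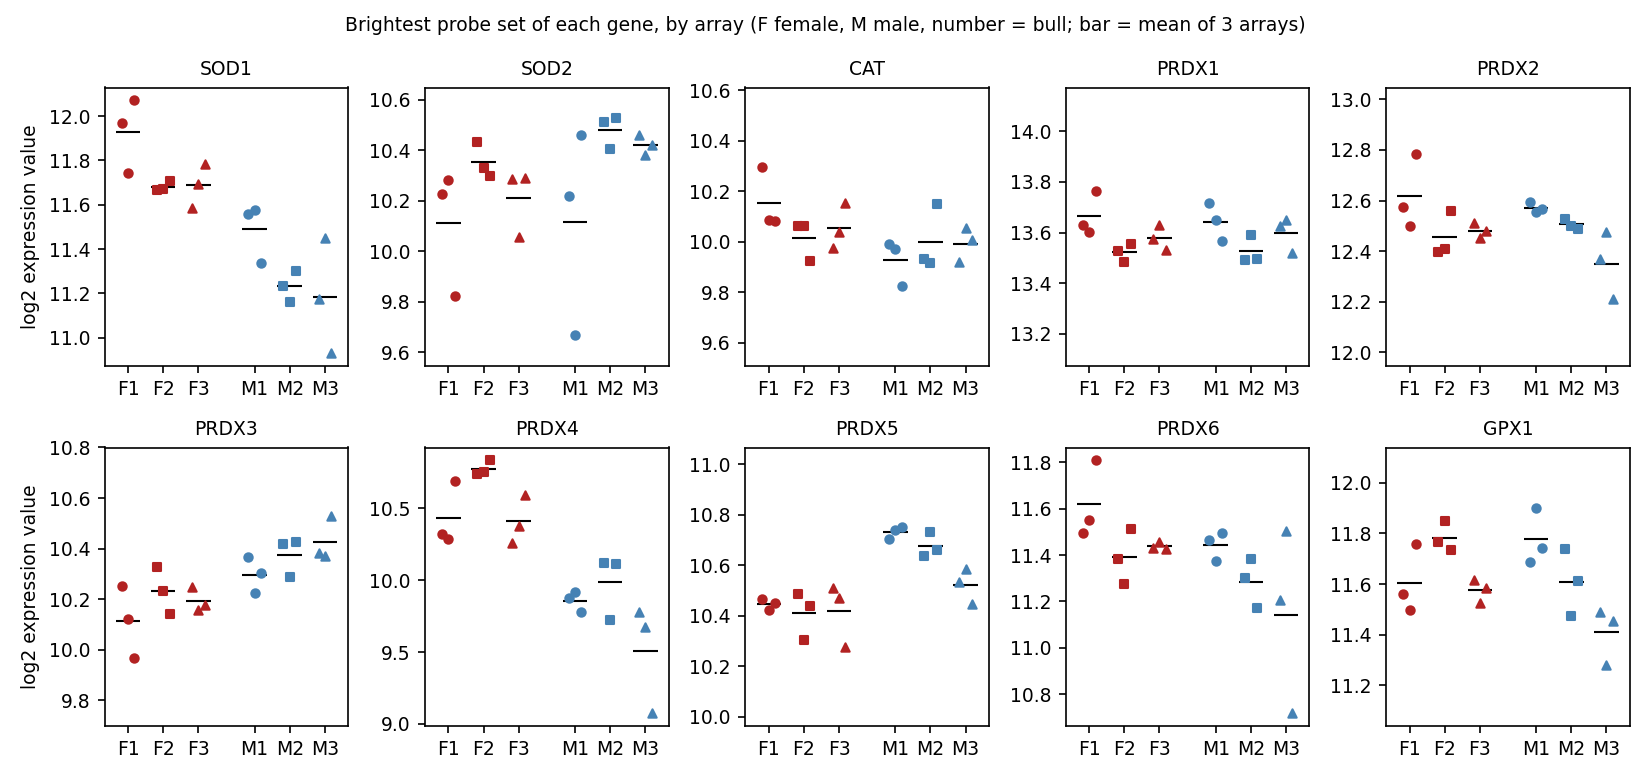
Log2 expression value (vertical axis, a different range in each panel) of the brightest probe set of each of the 10 genes on 18 arrays, by sex (F, M) and bull (1 to 3), with a bar at the mean of 3 arrays. All 9 female arrays lie above all 9 male arrays for SOD1 and PRDX4, and 8 of 9 male arrays lie above all female arrays for PRDX5.

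SOD1, the cytosolic copper and zinc dismutase, was higher in females of every bull. In females it was 11.97, 11.74 and 12.07 for bull 1, 11.66, 11.67 and 11.71 for bull 2, and 11.59, 11.69 and 11.78 for bull 3. In males it was 11.56, 11.58 and 11.34 for bull 1, 11.23, 11.16 and 11.30 for bull 2, and 11.17, 11.45 and 10.93 for bull 3. The lowest female array (11.59) and the highest male array (11.58) almost touch across bulls, but within a bull the sexes stood clear of each other. The female mean was 11.77 ± 0.16 (SD, n = 9) and the male mean 11.30 ± 0.21 (SD, n = 9). The difference was 0.46 (SE 0.07), a 1.38-fold higher level with a 95% interval of 1.24 to 1.52 (adjusted p = 0.000122).

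By bull the SOD1 difference was 0.44 for bull 1 (adjusted p = 0.0487), 0.45 for bull 2 (adjusted p = 0.0503) and 0.50 for bull 3 (adjusted p = 0.0218). These 3 values are close to each other, and the interaction of sex with bull had an unadjusted p of 0.922. Females of bull 1 had the highest mean, then females of bull 3 and bull 2, whose ranges all overlap with the next. Males of bull 1 followed with a gap to the females of bull 2 and another gap to the males of bull 2, while males of bull 2 and bull 3 overlapped. The highest array of male bull 3 (11.45) lay within the range of male bull 1. Without the 4 arrays of wide spread the difference was 0.41 (adjusted p = 0.000633). The call on SOD1 within bull 1 was lost in 19 of 29 alternatives, those that leave out the wide arrays (0.41, adjusted p = 0.0815) among them, and the call within bull 3 in 6 of 29. Among 8838 autosomal genes 841 were called higher in females, and 245 of these had a difference at least as large as that of SOD1.

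SOD2, the mitochondrial manganese dismutase, did not pass the test. Females ranged from 9.82 to 10.43 with a median of 10.28, and males from 9.67 to 10.53 with a median of 10.42. The difference was -0.11 with a 95% interval of -0.30 to 0.07 (adjusted p = 0.465), and it was negative in each bull (-0.01, -0.13 and -0.21). In bull 3 all 3 male arrays (10.46, 10.38 and 10.42) lay above the female arrays (10.28, 10.06 and 10.29). In the other bulls the sexes overlapped, and male bull 1 held both a high array (10.46) and the lowest of all (9.67, an array of wide spread).

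CAT, the peroxisomal enzyme that splits hydrogen peroxide into water and oxygen, was 9.92 to 10.29 in females (median 10.06) and 9.82 to 10.15 in males (median 9.97). The difference was 0.10 with an interval of -0.02 to 0.22 (adjusted p = 0.277). Most of it lay in bull 1, where the female arrays at 10.29, 10.09 and 10.08 stood above the male arrays at 9.99, 9.97 and 9.82 (0.23, adjusted p = 0.247). In bulls 2 and 3 the differences were 0.02 and 0.06 and the arrays overlapped, but the interaction was not called either (unadjusted p = 0.309).

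Of the cytosolic peroxiredoxins, PRDX1 showed the smallest sex difference among the 10 genes. It ranged from 13.48 to 13.76 in females and from 13.49 to 13.72 in males, both with a mean of 13.59. Its 95% interval of -0.10 to 0.10 bounds any difference at about 1.07-fold in either direction (adjusted p = 0.999). Its spread within groups was also small: the residual SD of 0.06 lay at the 1.33 percentile of all probe sets. PRDX2, which reduces peroxide in the same compartment, was 12.40 to 12.78 in females and 12.21 to 12.60 in males. The difference was 0.04 with an interval of -0.07 to 0.16 (adjusted p = 0.686). Its highest array, 12.78, was female bull 1 replicate 3, and its lowest, 12.21, was male bull 3 replicate 3, both arrays of wide spread.

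PRDX6 differs from the other members in having a single working cysteine, and it also has phospholipase activity. It was read by 4 probe sets, of which the second in brightness was called. On probe set 1, the brightest, females ranged from 11.27 to 11.81 (median 11.46) and males from 10.72 to 11.50 (median 11.37). The difference was 0.19 with an interval of 0.02 to 0.37 and did not pass the test (adjusted p = 0.143). On probe set 2 females ranged from 9.67 to 9.97 (median 9.87) and males from 9.13 to 9.75 (median 9.61). Here 6 of the 9 female arrays lay above all males, and the difference was called at 0.28 (SE 0.08, adjusted p = 0.016, a 1.21-fold higher level in females). On both, the lowest array was male bull 3 replicate 3 (10.72 and 9.13), far below the other 8 male arrays. Without the 4 arrays of wide spread the differences were 0.08 (adjusted p = 0.428) and 0.19 (adjusted p = 0.0463). Without male bull 3 replicate 2 the brightest was called too (0.25, adjusted p = 0.0233), while the call on probe set 2 was lost without bull 1 (adjusted p = 0.0878) and without bull 2 (adjusted p = 0.10).

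The remaining PRDX6 probe sets did not follow. probe set 3 had 7.20 to 7.74 in females and 7.16 to 8.0 in males, and probe set 4, among the dim probe sets of the array, had 2.80 to 3.22 and 2.83 to 3.78. Their differences were -0.04 (adjusted p = 0.847) and -0.06 (adjusted p = 0.766). Across the 18 arrays the brighter pair moved together (r = 0.84), while the brightest had r of -0.06 and 0.11 with the dimmer pair. The arrays behind these correlations share sex, bull and RNA quality, and the values are given as a description.

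**Figure D2:**
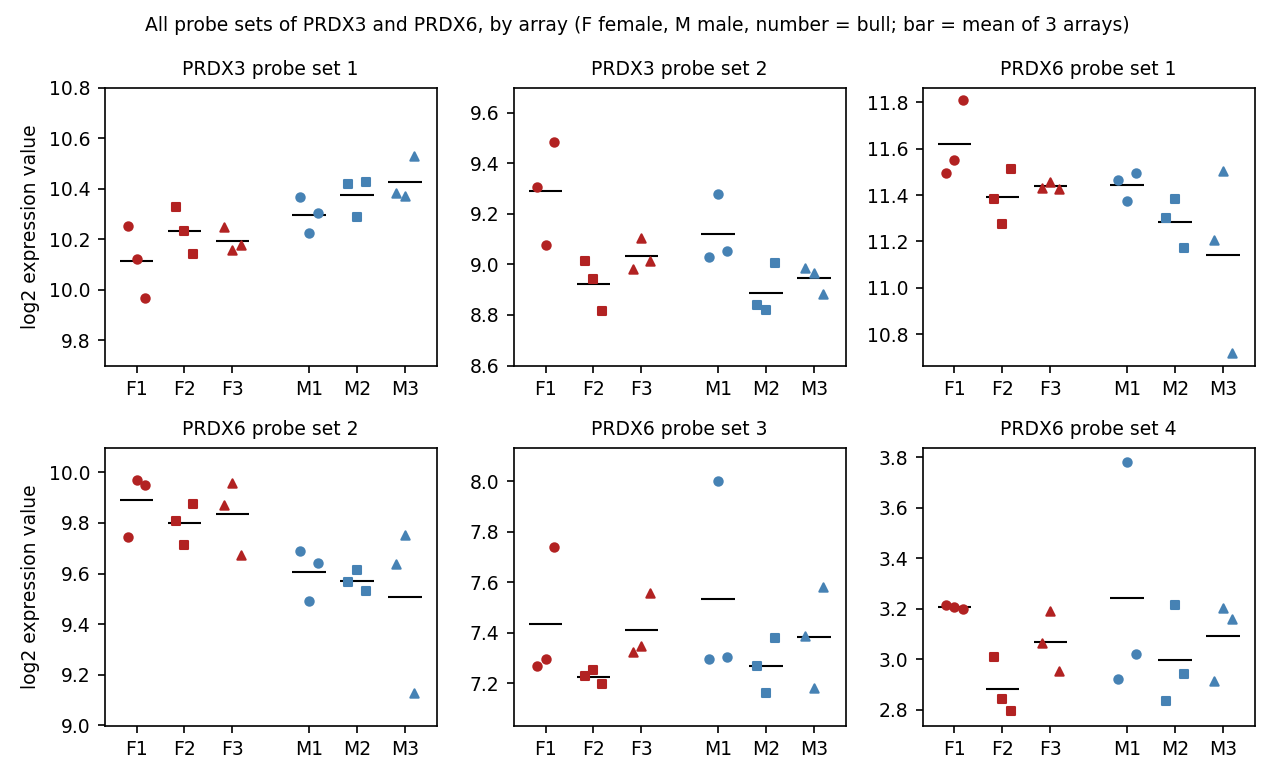
Log2 expression value (vertical axis, a different range in each panel) of both PRDX3 probe sets and the 4 PRDX6 probe sets on 18 arrays, by sex (F, M) and bull (1 to 3), with a bar at the mean of 3 arrays. PRDX3 probe set 1 is higher in males, probe set 2 is not, and of the PRDX6 probe sets probe set 2 was called higher in females, probe set 1 (0.19) was not called, and both have 1 low array of male bull 3.

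PRDX3, the peroxiredoxin of the mitochondrial matrix, gave values in opposite directions on its probe sets. On the brighter, probe set 1, females were 10.25, 10.12 and 9.97 for bull 1, 10.33, 10.23 and 10.14 for bull 2, and 10.25, 10.16 and 10.18 for bull 3. Males were 10.37, 10.22 and 10.30, then 10.42, 10.29 and 10.43, then 10.38, 10.37 and 10.53. The sexes overlapped over all arrays and stood apart in bull 3 alone. The female mean was 10.18 ± 0.10 (SD, n = 9), the male mean 10.37 ± 0.09 (SD, n = 9), and the difference -0.19 (SE 0.05, adjusted p = 0.0248). It was negative in each bull (-0.18, -0.14 and -0.23) and called in none of them.

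On probe set 2 the PRDX3 difference was 0.10 (interval -0.03 to 0.23, adjusted p = 0.357), with females at 8.81 to 9.48 and males at 8.82 to 9.28. Over the 18 arrays the probe sets had r = -0.55. When both were averaged the difference of the gene was -0.04 (adjusted p = 0.51). Without the 4 arrays of wide spread the brighter probe set gave -0.15 (adjusted p = 0.0526). The call was also lost without replicate 3 of female bull 2 (adjusted p = 0.0595) or replicate 2 of female bull 3 (adjusted p = 0.051), without any 1 of the bulls (adjusted p = 0.0613 to 0.209), and with the bull as the replicate (adjusted p = 0.0761).

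PRDX5, which reduces peroxide in mitochondria, peroxisomes and the cytosol, was higher in males. Female arrays were 10.47, 10.42 and 10.45 for bull 1, 10.49, 10.31 and 10.44 for bull 2, and 10.51, 10.47 and 10.28 for bull 3. Male arrays were 10.70, 10.74 and 10.75, then 10.64, 10.73 and 10.66, then 10.53, 10.59 and 10.45. Of the 9 male arrays 8 lay above every female array, and the exception was replicate 3 of bull 3. The female mean was 10.43 ± 0.08 (SD, n = 9) and the male mean 10.64 ± 0.10 (SD, n = 9). The difference was -0.22 (SE 0.05, adjusted p = 0.00532), or 1.16-fold higher in males with an interval of 1.08 to 1.25.

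Within bulls the PRDX5 difference was -0.29, -0.27 and -0.10 for bulls 1, 2 and 3, and none was called (adjusted p = 0.0765, 0.127 and 0.661). The sexes did not overlap in bulls 1 and 2 and overlapped in bull 3. The order of the 6 groups ran from males of bull 1 and bull 2, which overlapped, to males of bull 3 after a gap, and then to the 3 female groups, whose ranges overlapped with the next in each step. The call was lost without bull 1 (adjusted p = 0.0804), without bull 2 (adjusted p = 0.116) and with the bull as the replicate (adjusted p = 0.0565). It was kept without the 4 arrays of wide spread (-0.24, adjusted p = 0.00648).

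PRDX4 works in the endoplasmic reticulum, where it uses peroxide to help form disulfide bonds in proteins. It had the largest sex difference of the 15 probe sets. Female arrays were 10.32, 10.29 and 10.69 for bull 1, 10.74, 10.75 and 10.83 for bull 2, and 10.26, 10.38 and 10.59 for bull 3. Male arrays were 9.87, 9.92 and 9.78 for bull 1, 10.12, 9.72 and 10.12 for bull 2, and 9.78, 9.68 and 9.08 for bull 3. All females lay above all males, and the lowest value by far was replicate 3 of male bull 3. The female mean was 10.54 ± 0.23 (SD, n = 9), the male mean 9.78 ± 0.31 (SD, n = 9), and the level 1.69-fold higher in females with an interval of 1.47 to 1.93 (SE of the log2 difference 0.09, adjusted p = 1.31e-05).

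The PRDX4 difference was 0.58 in bull 1 (adjusted p = 0.0499), 0.79 in bull 2 (adjusted p = 0.00805) and 0.90 in bull 3 (adjusted p = 0.00277). These sizes did not differ beyond the spread (interaction, unadjusted p = 0.375). The call in bull 1 was lost in 18 of 29 alternatives, and that in bull 2 without replicate 2 of male bull 2 (adjusted p = 0.062). Without the 4 arrays of wide spread the overall difference was 0.67 (adjusted p = 2.34e-05), and without replicate 3 of male bull 3 alone it was 0.68. Females of bull 2 stood above the other female groups with no overlap. Females of bulls 1 and 3 overlapped, and males of bulls 2 and 1 overlapped after a gap. Males of bull 3 had the lowest mean, just below all males of bull 1 and with 1 array of male bull 2 (9.72) inside their range.

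Because PRDX4 is X-linked, its value was set beside those of the 296 other X-linked genes. Their median difference was 0.44 with quartiles of 0.14 and 0.70, and 207 were called higher in females. PRDX4 lay above the upper quartile, and 58 of the 296 had a difference at least as large. The median of the autosomal probe sets was -0.03.

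GPX1, the glutathione peroxidase of cytosol and mitochondria, was 11.50 to 11.85 in females and 11.28 to 11.90 in males on probe set 1. The difference was 0.06 with an interval of -0.06 to 0.18 (adjusted p = 0.587). Its sign turned with the bull. In bull 1 females (11.56, 11.50 and 11.76) had a lower mean than males (11.69, 11.90 and 11.74), a difference of -0.17, and in bulls 2 and 3 the differences were 0.18 and 0.17. The arrays separated by sex in bull 3 only, where females were 11.62, 11.52 and 11.59 and males 11.49, 11.28 and 11.45. The interaction had the smallest unadjusted p of the members (0.0405) and did not pass the adjustment (adjusted p = 1.00). The other GPX1 probe set, probe set 2, was dim (3.43 to 3.89 over all arrays) with a difference of 0.03 (adjusted p = 0.853).

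**Figure D3:**
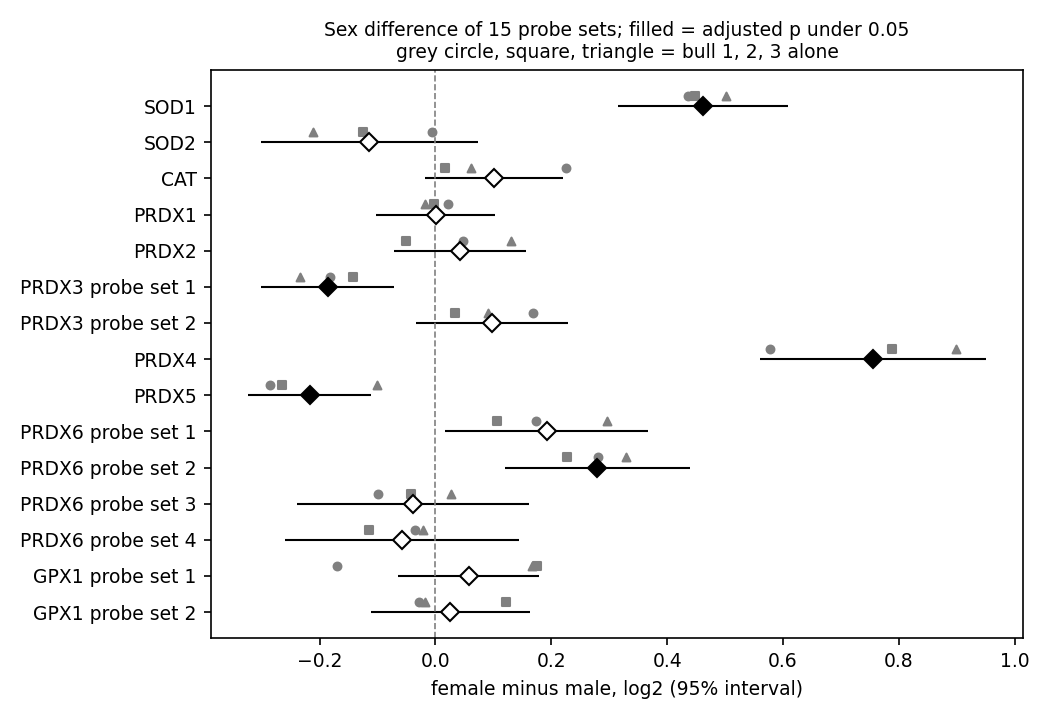
Female minus male difference in log2 expression (horizontal axis) of the 15 probe sets, with 95% intervals over 9 arrays per sex. Diamonds are filled where limma's adjusted p is under 0.05, and grey symbols give each bull alone. SOD1 (0.46) and PRDX4 (0.75) lie farthest to the right, PRDX5 (-0.22) and PRDX3 (-0.19) to the left, and the bulls of GPX1 probe set 1 lie on both sides of 0.

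For the other genes the order of the 6 group means was less clear. For CAT, PRDX1, PRDX3 and PRDX6, on the brightest probe set, each group overlapped with the next in order. SOD2 ran from males of bull 2 (10.48) down to females of bull 1 (10.11), with 1 gap, between females of bull 2 and of bull 3. PRDX2 ran from females of bull 1 (12.62) to males of bull 3 (12.35), with 1 gap, between males of bull 1 and of bull 2. GPX1 ran from females of bull 2 (11.78) to males of bull 3 (11.41), which stood below females of bull 3, their neighbour in the order, while 1 array of male bull 2 (11.47) lay inside their range.

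Within single bulls, SOD1 and PRDX4 alone were called among the members: both in bull 1, PRDX4 in bull 2 and both in bull 3. Of all probe sets 4.2%, 3.13% and 4.18% were called in bulls 1, 2 and 3, and of all genes 6.03%, 4.59% and 5.92%. With 1 array left out the shares of all probe sets were 2.6% to 5.16%, 1.76% to 3.98% and 1.94% to 5.48%. Male and female arrays of the bull did not overlap for 5, 4 and 5 of the 15 probe sets, where 18.2%, 25.1% and 22.6% of all probe sets did so. No member was called for a sex difference that varied with the bull. With limma the count was 0 of 10 genes, 1 at an unadjusted p under 0.05, and 0 by the analysis of variance, and 0% of all probe sets were called. Of all 9155 genes 194 had an unadjusted p under 0.05 for this interaction.

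Between bulls, with both sexes averaged, PRDX4 was the only member called, and only from bull 2 to bull 3. It was 9.72 to 10.83 over 6 arrays of bull 2 and 9.08 to 10.59 over 6 arrays of bull 3, ranges that overlap. The difference of bull 3 minus bull 2 was -0.42 (SE 0.11, adjusted p = 0.0464), where 3.74% of all probe sets were called. It was -0.28 (adjusted p = 0.084) without the 4 arrays of wide spread and -0.31 (adjusted p = 0.101) without replicate 3 of male bull 3. The 5′ minus 3′ index, a measure of RNA integrity from the control transcripts, moved with the bulls, from a mean of -0.10 in bull 1 and -0.25 in bull 2 to -0.69 in bull 3, and was -0.35 in both sexes. With that index as a covariate the PRDX4 difference between bulls 3 and 2 was -0.17 (adjusted p = 0.52). The index ran from -0.38 to -0.13 in bull 2 and from -1.27 to -0.36 in bull 3, so index and bull can hardly be separated. As a covariate it can widen the error of a bull 3 difference, and a part of RNA integrity was not tested.

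For bull 2 minus bull 1, no member was called (1.52% of all probe sets were). At an unadjusted p under 0.05 were 3 of the 10 genes, beside 1810 of all 9155 genes. For bull 3 minus bull 1, none was called (3.53% of all probe sets were). Here 4 of the 10 genes had an unadjusted p under 0.05, beside 1873 of all 9155. The analysis of variance called none in either. SOD1 had a difference of -0.25 for bull 2 (adjusted p = 0.136) and -0.27 for bull 3 (adjusted p = 0.0835) against bull 1. SOD2 ran the other way with 0.30 (adjusted p = 0.16) and 0.20 (adjusted p = 0.332). The comparisons share the arrays of bull 1. The shares of all probe sets called between bulls hung on single arrays. With 1 array left out they were 0.554% (without female bull 2 replicate 1) to 2.53% (without male bull 1 replicate 3) for bull 2 minus bull 1, and 1.13% (without female bull 3 replicate 1) to 6.64% (without male bull 3 replicate 2) for bull 3 minus bull 1. For bull 3 minus bull 2 they were 1.6% to 5.57%. With the 5′ minus 3′ index as a covariate 0.05% were called for bull 3 minus bull 1 and 0.595% for bull 3 minus bull 2. In both the index and bull 3 can hardly be separated.

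The patterns of the 3 members with the largest sex differences were compared with all other genes over the 18 arrays by Pearson's r, as a description, since sex and array quality are shared by all points. Closest to PRDX4 were MRPS6 (0.93), BCAP31 (0.93) and IKBKG (0.92), of which the last pair is X-linked. Closest to SOD1 were PSMD10 (0.98) and SYAP1 (0.97), both X-linked, and ARPC5 (0.96). Closest to PRDX5 were RNF166 (0.90), PTPMT1 (0.88) and ALKBH7 (0.88). When the group means were removed, the closest were PRMT1 (0.94), RPLP0 (0.91) and MCM4 (0.91) for PRDX4, IFTAP (0.97), ATXN3 (0.94) and UFC1 (0.93) for SOD1, and DENND2D (0.90), GALK2 (0.88) and GPAT3 (0.87) for PRDX5. No gene stood among the closest both before and after the group means were removed.

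The enzymes that feed and renew these peroxidases were read from a list of 50 other peroxide and thiol redox genes, of which 40 were measured. On the brightest probe sets 10 of 40 were called, 7 higher in females and 3 in males, beside 20.8% of all genes, and the median difference of 0.01 was close to that of all genes (-0.01). Of the suppliers of NADPH, the electron donor of this system, the mitochondrial IDH2 was 0.32 higher in females with no overlap (adjusted p = 0.000974), and the cytosolic malic enzyme ME1 was 0.43 higher (adjusted p = 0.0142). A second, dimmer ME1 probe set had 0.13 and was not called (adjusted p = 0.237). IDH1 and PGD, with 0.14 and -0.01, were not called. Dimmer IDH1 probe sets had opposite signs, 0.24 (adjusted p = 0.0759) and -0.16 (adjusted p = 0.0724). Of the thioredoxin reductases, the cytosolic TXNRD1 was higher in females (0.30, adjusted p = 0.0239) and the mitochondrial TXNRD2 higher in males (-0.28, adjusted p = 0.0191). Thioredoxins themselves, TXN at 0.04 and TXN2 at -0.07, were not called.

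Of the glutathione genes, GSS, which makes glutathione in its last step, was higher in males (-0.30, adjusted p = 0.00202). The peroxidases GPX2 (0.40, adjusted p = 0.0321) and GPX7 of the endoplasmic reticulum (0.19, adjusted p = 0.0178) were higher in females, while GPX3 and GPX4 were not called. HMOX2, the constitutive haem oxygenase, was higher in females (0.42, adjusted p = 4.00e-05), with 6 of 9 female arrays above all males. NFE2L2, the transcription factor that drives many antioxidant genes, had 0.18 (adjusted p = 0.0387), and SEPHS2, which supplies selenium for selenoproteins, had -0.23 (adjusted p = 0.04). A dimmer NFE2L2 probe set had 0.12 and was not called (adjusted p = 0.377). Without the 4 arrays of wide spread TXNRD1 (0.20, adjusted p = 0.0792), TXNRD2 (-0.22, adjusted p = 0.0769), NFE2L2 (0.13, adjusted p = 0.077) and SEPHS2 (-0.15, adjusted p = 0.115) lost their calls. GPX2 lost its call in 10 of 33 alternatives, NFE2L2 in 20 and SEPHS2 in 17, and these last also lost it with the replicate number as a block (adjusted p = 0.0586 and 0.06), while HMOX2 and IDH2 kept theirs in all that were run.

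**Figure D4:**
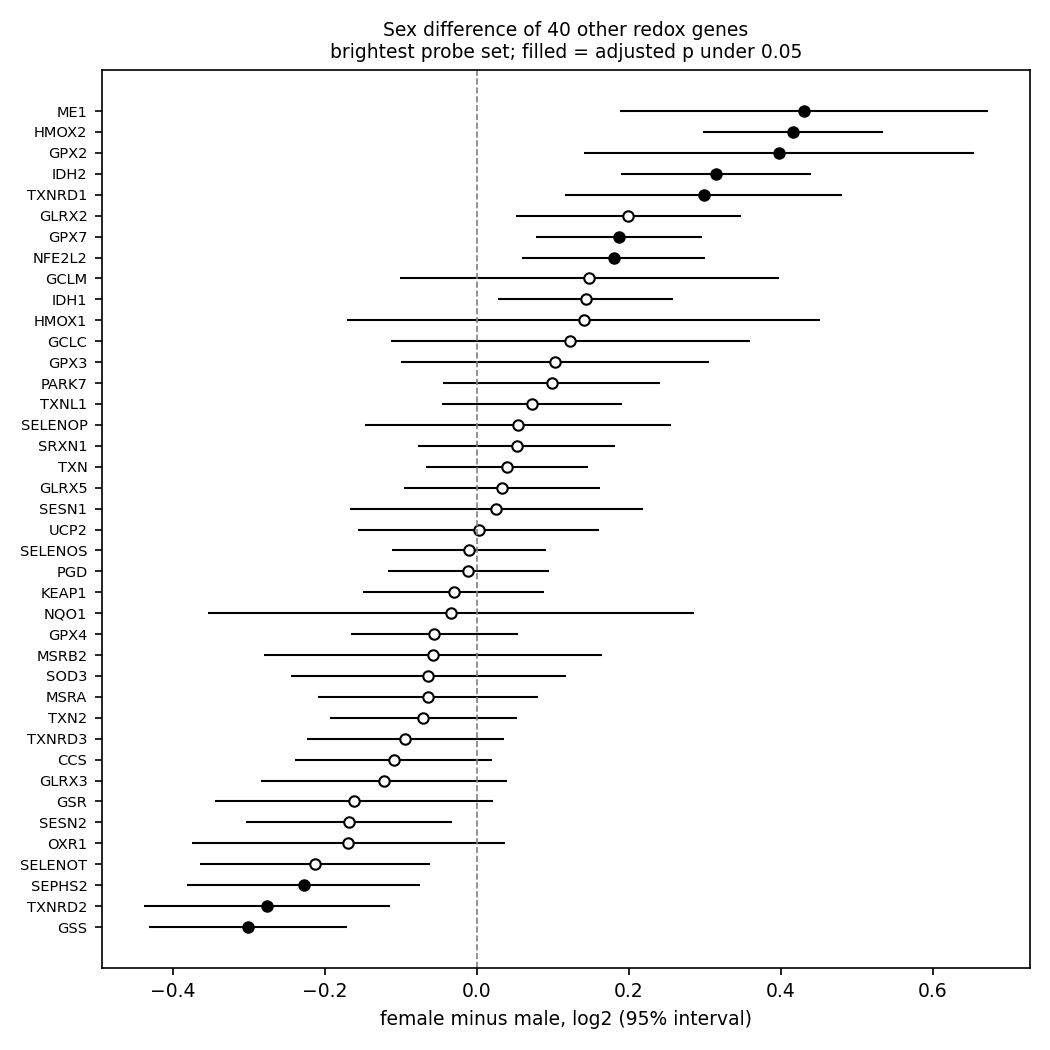
Female minus male difference in log2 expression (horizontal axis) of the 40 measured genes of the list of other peroxide and thiol redox genes, with 95% intervals over 9 arrays per sex, sorted by size. Filled points are the 10 genes with limma's adjusted p under 0.05: 7 lie to the right, led by ME1, HMOX2 and GPX2, and 3 to the left, GSS, TXNRD2 and SEPHS2.

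Of 27 genes whose products make superoxide or peroxide, 17 were measured and 5 called, beside 20.8% of all genes. MAOB, an amine oxidase of the outer mitochondrial membrane that releases hydrogen peroxide, is X-linked and was higher in females by 1.12 (adjusted p = 2.15e-07), 1.03, 1.21 and 1.14 in bulls 1, 2 and 3, with no overlap. RAC2, a small GTPase of the NADPH oxidase, was higher by 0.67 (adjusted p = 1.37e-06), again with no overlap and with 0.88, 0.65 and 0.49 in the bulls. The oxidase's membrane subunits CYBA (0.42, adjusted p = 0.00201) and the X-linked CYBB (0.21, adjusted p = 0.0351) were higher as well, though CYBB lost its call in 16 of 33 alternatives. The other measured NADPH oxidase genes were not called: NCF1 (0.23, adjusted p = 0.283), NCF4 (-0.01, adjusted p = 0.976) and NOX4 (-0.10, adjusted p = 0.471). In bulls 1, 2 and 3 CYBA had 0.70, 0.14 and 0.43. CYBB had 0.21, 0.52 and -0.11, so its sign turned in bull 3 (limma interaction, unadjusted p = 0.00301, not called after adjustment). Dimmer probe sets gave 0.29 for CYBB (adjusted p = 0.00851) and 0.61 for MAOB (adjusted p = 0.00252). ERO1A, the endoplasmic reticulum oxidase that makes peroxide while it forms disulfide bonds, was higher in males (-0.39, adjusted p = 0.00231), the opposite sign to PRDX4 in the same compartment. A dimmer ERO1A probe set (mean 2.32) had -0.07 and was not called (adjusted p = 0.622). The median over the 17 genes was -0.01.

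Several of these other redox genes differed between bulls. Of the 40 redox genes 6 were called from bull 1 to bull 2, all lower in bull 2, with MSRB2 (-0.58, adjusted p = 0.0309), SRXN1 (-0.58, adjusted p = 0.000689) and GLRX5 (-0.49, adjusted p = 0.00224) foremost, where 2.04% of all genes were called. SRXN1, sulfiredoxin, repairs peroxiredoxins whose cysteine has been overoxidised. From bull 2 to bull 3, 7 of the 40 were called (3.33% of all genes), led by NQO1 (0.73, adjusted p = 0.0355), GCLC (-0.68, adjusted p = 0.0114) and MSRB2 (0.66, adjusted p = 0.00934). GCLC (mean 4.42) and MSRB2 (4.49) lay below the median probe set in brightness. The sex difference of GCLC was 0.51, 0.33 and -0.47 in bulls 1, 2 and 3 (limma interaction, unadjusted p = 0.00542, not called after adjustment). From bull 1 to bull 3, 4 of the 40 redox genes and 2 of the 17 source genes were called (3.6% of all genes), led by ACOX3 (0.47, adjusted p = 0.00868), SELENOP (-0.45, adjusted p = 0.0404) and CYBA (-0.43, adjusted p = 0.0333). CCS, the chaperone that loads copper into SOD1, was lower in bull 2 than in bull 1 (-0.48, adjusted p = 0.00276) and higher in bull 3 than in bull 2 (0.40, adjusted p = 0.00715), and was named after its values were seen.

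With the 5′ minus 3′ index as a covariate, MSRB2, SRXN1 and GLRX5 kept their calls from bull 1 to bull 2 (-0.51, -0.58 and -0.43), and GCLC (-0.81) and MSRB2 (0.87) theirs from bull 2 to bull 3. NQO1 (0.74, adjusted p = 0.20) and CCS (0.40, adjusted p = 0.0762) lost the call from bull 2 to bull 3. From bull 1 to bull 3 the calls on ACOX3 (0.57, adjusted p = 0.203), SELENOP (-0.30, adjusted p = 0.915) and CYBA (-0.41, adjusted p = 0.774) were lost. ACOX3, NQO1 and CCS lost these calls at about the same or a larger size. Since the index went with bull 3, RNA integrity and bull cannot be told apart in these losses. Without the 4 arrays of wide spread MSRB2 lost its call from bull 1 to bull 2 (-0.39, adjusted p = 0.142) and NQO1 from bull 2 to bull 3 (0.73, adjusted p = 0.0742).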

How the data were processed

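Total RNA of 18 pools was amplified and hybridised to Affymetrix arrays, per the labels' protocols. The authors deposited 1 log2 value per probe set and array. RMA and Partek 6.4 appear, with no role given, per the submitters' processing notes. RMA usually draws array distributions together, so a shift of all transcripts would not be seen. No scan date or batch was used, and precision is limited by the number of arrays.

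Array control probe sets (112 of 24128) were left out. The platform annotation lists 1 gene for 13292 probe sets, several for 86 and none for 10638. Symbols and chromosomes were read through a RefSeq gene table of ARS-UCD2.0 by gene number (13263 matched, 29 not).

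A model with 1 mean for each of the 6 groups was fitted to all 24016 probe sets (R 4.3.3, limma 3.58.1, functions lmFit and eBayes, leaving 12 degrees of freedom). Contrasts were taken for the sexes over all bulls and per bull, for pairs of bulls and for the interaction. Base 2 raised to a log2 difference gives the fold change. Intervals are 95% intervals of the fit. The steps were tested on simulated data. Figures were drawn with matplotlib 3.10.9.

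The brightest probe set, by its mean over 18 arrays, stands for a gene. Named were all members, the listed redox genes called for sex, up to 3 listed genes per pair of bulls with the largest called difference, and the 3 genes most like each of the 3 members with the largest sex difference. The members, lists and tests were chosen with earlier results of these data known. Alternatives were the normalization, filter, moderation, weights, probe set rule, 5′ minus 3′ index, replicate block, and leaving out arrays or bulls.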

Additional observations from a re-analysis of the deposited data

Results flagged for a closer look

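In each group of 6 or 9 arrays of a sex or a bull, the gap from the highest or lowest array to the next was divided by the group's range (Dixon's ratio, against its 95% critical value). Of 75 groups 10 passed, and all 10 fell on 3 of the 4 arrays of wide spread. Chance passes about 1 in 20 where groups are separate and each has 1 normal spread. Here the groups share arrays and those of a bull mix the sexes, so that rate is only a rough guide. Male bull 1 replicate 2 was the lowest male array for SOD2 (9.67, ratio 0.641). It was the highest for PRDX3 probe set 2 (9.28, ratio 0.495), for PRDX6 probe set 3 (8.0, ratio 0.50) and for PRDX6 probe set 4 (3.78, ratio 0.595 among males and 0.659 within bull 1). Male bull 3 replicate 3 was the lowest male array for PRDX4 (9.08, ratio 0.575) and for PRDX6 on probe set 1 (10.72, ratio 0.577) and probe set 2 (9.13, ratio 0.584). Female bull 1 replicate 3 was the highest array for PRDX2 (12.78), with a ratio of 0.54 among females and 0.661 within bull 1.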

How the results depend on the processing

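Over 33 alternatives SOD1 (0.41 to 0.51, highest adjusted p = 0.00762) and PRDX4 (0.65 to 0.84, highest adjusted p = 0.00141) kept their sex calls. All probe sets called for sex came to 2044 without bull 2 and 2182 without bull 3, against 3743 (15.6%), each of 24016 tested. With 1 value per gene only 9155 were tested. Of these 2222 were called with the brightest probe set and 2096 (22.9%) with the probe sets of each gene averaged, both a larger share. Member genes called for sex came to 2 without bull 1, 2 without bull 2 and 2 with the bull as the replicate, against 4. Other redox genes called came to 5, 3 and 3 without bulls 1, 2 and 3, against 10, and from 6 to 11 when 1 array was left out (6 without male bull 2 replicate 1). That list was not run on the brighter 50% of probe sets, which drops some of its genes. Within bull 1, 2 members were called, and 1 by the analysis of variance, 0 without the 4 arrays of wide spread, 0 on that bull's arrays alone and 0 to 2 with 1 array left out. Within bull 2, 1 member was called, and 3 with the brighter 50%, the intensity trend or array weights, 2 with the analysis of variance, repeated quantile normalization, the brightest or the mean probe set, without the wide arrays, with the 5′ minus 3′ index or on that bull alone, and 0 to 2 with 1 array left out. Within bull 3, 2 were called, and 1 without the wide arrays or on that bull alone, and 1 to 2 with 1 array left out. From bull 1 to bull 3, 0 were called, and 1 with the brighter 50% or array weights, 3 with the intensity trend and 0 to 2 with 1 array left out. From bull 2 to bull 3, 1 was called, and 0 with the analysis of variance, without the wide arrays or with the 5′ minus 3′ index, 2 with the trend and 0 to 1 with 1 array left out. The share of all tested probe sets or genes called moved over the 29 alternatives too. Within bulls 1, 2 and 3 it ran from 1.21% to 10.4%, 1.76% to 7.49% and 1.94% to 13.1%. It ran from 0.05% to 10.6% for bull 3 minus bull 1 and from 0.595% to 11.2% for bull 3 minus bull 2. The cause of these changes was not tested. The count of all probe sets called moved by over 1.5 times without 2, 5 or 3 of the 18 arrays, each in turn, within bulls 1, 2 and 3 (lowest 625, 422 and 465 without female bull 1 replicate 3, female bull 2 replicate 2 and female bull 3 replicate 3), and without 8, 6 or 6 for bull 2 minus 1, bull 3 minus 1 and bull 3 minus 2 (lowest 133, 271 and 384).

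The sign turned only where no call was made. PRDX1 (0.0001) was -0.00025 with repeated quantile normalization, -0.0301 with array weights, -0.0344 without the wide arrays, -0.0108 without bull 1, and -0.0162 to 0.0124 with 1 array left out. PRDX2 was -0.0082 without the wide arrays and -0.0017 without bull 3. GPX1 was -0.00155 on probe set 1 and -0.0232 on probe set 2 without bull 2, and on the latter -0.0128 to 0.0595 with 1 array left out. PRDX6 probe set 4 was 0.0595 with array weights, 0.0175 without the wide arrays and -0.11 to 0.0325 with 1 array left out (above 0 without male bull 1 replicate 2). PRDX6 probe set 3 was 0.0215 without the wide arrays and -0.0894 to 0.0394 with 1 array left out (above 0 without the same array).

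Whether replicate numbers pair the samples is not in the labels. Same-numbered arrays correlated at -0.23 to 0.16 after removal of group means, over 0.1 in 4 of 45 pairs. Differently numbered arrays reached 0.21, and 2 of 18 arrays correlated best with their own number. Removing the mean of 3 arrays ties the values of a group to each other, so these correlations cannot settle the pairing. With the replicate block 3527 probe sets and 4 member genes were called for sex, 0 members within bull 1 and 0 from bull 2 to bull 3.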
